A study of Mus musculus with 14 samples.

Results

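Retinoic acid is a hormone-like derivative of vitamin A that enters the nucleus and switches genes on through receptors bound to DNA. Aldehyde dehydrogenases such as Aldh1a2 make it from retinaldehyde, the Cyp26 enzymes break it down, small cytosolic proteins of the Crabp family carry it, and the receptors Rara, Rarb and Rarg bind target genes together with a retinoid X receptor. In the fetal gonad it is known as a signal upstream of Stra8, a gene that female germ cells need to enter meiosis, while Cyp26b1 in the supporting cells of the testis is known to keep its level low. The genes described here are the receptors Rara, Rarb and Rarg, the binding proteins Crabp1 and Crabp2, the synthetic enzyme Aldh1a2, the degrading enzymes Cyp26a1 and Cyp26b1, and Crym. Crym encodes a cytosolic protein that binds thyroid hormone and is a ketimine reductase, not a protein of the retinoic acid pathway. They were chosen by symbol: 10 probe sets had exactly one of the 9 symbols in the platform annotation, of 34958 probe sets with a single symbol and 45101 in all. Rarg had 2 probe sets and each other gene had 1, so all 9 genes were measured among the 18194 tested.

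The study hybridized RNA of mouse primordial germ cells, from which eggs and sperm arise, to 14 Affymetrix arrays in 7 groups of 2 biological replicates. The groups were cells of embryonic days E9.5, E10.5 and E11.5, whose sex was not recorded, and males and females of E12.5 and of E13.5. The E10.5 to E13.5 embryos came from BDF1 mothers and stella-EGFP transgenic fathers of mixed B6/CBA background, and all their groups carried that reporter. Their germ cells were sorted on its fluorescence after trypsin treatment of genital ridges, and the cDNA was amplified by 12 cycles of PCR. The E9.5 cells were of strain C57BL/6, came from an earlier study and went through another RNA kit and 22 cycles, and no sort of them is described in the sources used here. Each sample started from 5 ng of total RNA, stated to equal 500 cells.

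Values are log2 signals of probe sets. A probe set is a group of short probes for one transcript, so levels of different genes cannot be ranked against each other. The array medians lay between 4.66 and 4.80. A level below 4.72, the median of the whole table, is called dim, and where one side of a comparison is dim, the change is given as a difference of signals, not of transcript amounts. None of the 9 genes was dim in all 7 groups. Rarb was dim in both male groups, Cyp26a1 in 3 groups, and the means of the other genes lay above the table median in each group. The germ cell label held: all 7 measured germ cell markers lay above the table median in each group from E10.5, and 6 of 7 did at E9.5. The signal of Dppa3 (also called stella), whose reporter marked the sorted cells, ranged over all arrays from 13.09 to 13.76. Other cells left signal as well. The log2 summed signal of 5 blood genes was 14.57 and 13.67 at E9.5 and between 6.22 and 8.82 on the arrays from E11.5 on. Gapdh, read at both ends of its transcript as a measure of RNA integrity, gave a 3′ minus 5′ difference of 3.16 for E13.5 male replicate 2 and of 3.09 for E13.5 female replicate 2, with a highest value of 2.53 on the remaining arrays. The small number of arrays, 2 in each group, limits the precision, and in such bulk samples fewer cells of a type and less RNA per cell cannot be told apart.

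The promoters are shown first, since the receptors act on them. The most familiar retinoic acid response element is a pair of hexamers in the same direction with 5 bases between them, called a DR5 element, and Rarb and Cyp26a1 are textbook targets through it. Promoter windows of 300 bases, from 250 before to 50 after an annotated start, were available from RefSeq (GRCm38.p6) for 7 of the 9 genes, 11 windows in all. They were searched on both strands for 2 hexamers 5 bases apart, each of them AGGTCA or AGTTCA or GGGTCA or GGTTCA. The search found 2 matches in the 11 windows. In the Rarb window, chr14:16575427-16575726 on the minus strand, a match lay from 53 to 37 bases before the start. In the Cyp26a1 window, chr19:37697558-37697857 on the plus strand, a match on the opposite strand lay from 32 to 16 bases before the start and reads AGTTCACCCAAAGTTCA there. Both of these starts, and both matches, lie inside the spans given for the genes below. Over all 32851 windows the same search matched 0.0974%. Spacers of 2 and 1 bases (DR2 and DR1) gave 0 matches in the 11 windows, against 0.268% and 0.222% of all windows, and a window without a match shows nothing about binding elsewhere. Both windows are printed 5′ to 3′ with the DR5 match in capitals, because these are the members whose own windows hold a match.
Rarb: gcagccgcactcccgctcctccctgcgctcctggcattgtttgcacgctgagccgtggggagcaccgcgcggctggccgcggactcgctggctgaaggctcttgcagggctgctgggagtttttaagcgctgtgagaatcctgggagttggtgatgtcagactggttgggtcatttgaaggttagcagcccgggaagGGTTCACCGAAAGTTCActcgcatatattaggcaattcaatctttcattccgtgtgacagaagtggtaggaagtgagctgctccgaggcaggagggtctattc
Cyp26a1: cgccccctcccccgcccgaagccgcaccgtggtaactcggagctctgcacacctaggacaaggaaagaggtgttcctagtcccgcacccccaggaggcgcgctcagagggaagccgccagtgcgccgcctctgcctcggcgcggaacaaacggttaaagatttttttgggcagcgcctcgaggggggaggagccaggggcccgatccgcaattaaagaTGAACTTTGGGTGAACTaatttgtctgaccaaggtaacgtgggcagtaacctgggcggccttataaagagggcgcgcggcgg

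The windows of Crabp1, chr9:54764498-54764797 on the plus strand, and Aldh1a2, chr9:71215539-71215838 on the plus strand, are shown for their content of CpG, the dinucleotide that carries DNA methylation, since germ cells of these days lose most of that mark. CpG dinucleotides are in capitals. The Aldh1a2 window held 50 of them, a ratio of 1.11 to the number its base composition would give, which is above 98.3% of all windows. The Crabp1 window held 17, a ratio of 0.543, above 60.7% of all windows, whose median ratio is 0.384. For Cyp26a1 the ratio was 0.894 and for Rarb 0.696. No methylation was measured here, so these are properties of the sequence alone.
Crabp1: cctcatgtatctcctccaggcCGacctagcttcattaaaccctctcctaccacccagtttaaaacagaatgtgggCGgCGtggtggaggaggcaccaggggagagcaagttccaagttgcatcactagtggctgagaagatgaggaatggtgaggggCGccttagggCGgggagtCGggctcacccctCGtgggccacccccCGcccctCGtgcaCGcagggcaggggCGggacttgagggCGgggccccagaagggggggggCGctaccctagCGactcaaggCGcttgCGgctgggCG
Aldh1a2: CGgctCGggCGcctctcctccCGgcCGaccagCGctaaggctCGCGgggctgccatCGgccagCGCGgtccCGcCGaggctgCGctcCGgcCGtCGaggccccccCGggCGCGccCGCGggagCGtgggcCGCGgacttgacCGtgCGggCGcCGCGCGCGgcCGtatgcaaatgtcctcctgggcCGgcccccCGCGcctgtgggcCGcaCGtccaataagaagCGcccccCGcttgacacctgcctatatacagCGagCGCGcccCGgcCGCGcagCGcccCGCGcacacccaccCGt

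Of the 3 receptors, Rarb differed between the sexes at E13.5, and no change of Rara or Rarg passed the test. Rarb (probe set 1454906_at, chr14:16430839-17082331 in GRCm38.p6, as are all positions here), the receptor gene that retinoic acid itself induces, read 5.78 and 6.67 at E9.5, 5.15 and 7.0 at E10.5, and 4.76 and 5.48 at E11.5. E12.5 males then read 4.43 and 4.45 and females of that age 5.44 and 4.97, while E13.5 males read 4.10 and 2.82 and females 6.26 and 6.10. The 4 male arrays were the 4 lowest of the 14, all dim, and the E13.5 females lay back in the range of the E9.5 and E10.5 arrays. At E13.5 the difference was -2.72 on the log2 scale in males relative to females (SE 0.58, 95% interval -3.99 to -1.45, adjusted p = 0.0131), a difference of signals because the male level was dim. The difference was still -2.08 without E13.5 male replicate 2, where the adjusted p was 0.113, and the call was also lost without either female array (adjusted p = 0.0865 and 0.0637). E13.5 males also fell below E10.5, by 2.62 (SE 0.58, adjusted p = 0.0129), a change that shrank to -1.69 without E10.5 replicate 2 (adjusted p = 0.0637) and to -1.98 without E13.5 male replicate 2 (adjusted p = 0.113). The E10.5 replicates were far apart. At E12.5 the sex difference was -0.77 (SE 0.58, adjusted p = 0.699), and the change of the sex difference between the ages was -1.96 (SE 0.81, adjusted p = 0.618). Markers of other cells also moved in E13.5 males against E10.5, beside 12.7% of all genes. Lower were 2 of 5 for blood, 2 of 6 for endothelium and 2 of 12 for gonadal somatic cells and mesenchyme. Higher were 2 of 8 for male supporting and 1 of 4 for steroidogenic cells. Of 6 for female supporting cells, 1 was higher and 1 lower. Their part in the fall of Rarb, and in that of Crabp1 below, was not tested.

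Rara (1450180_a_at, chr11:98927800-98974942), the most widely expressed of the 3 receptors, lay between 5.86 and 6.42 on 13 of the 14 arrays. It read 6.11 and 6.09 at E9.5, 5.86 and 5.88 at E10.5, and 5.99 and 5.88 at E11.5. At E12.5 males read 6.20 and 6.33 and females 6.41 and 6.28, and at E13.5 males read 7.24 and 6.35 and females 6.35 and 6.42. Only E13.5 male replicate 1 stood apart from the rest, and the E13.5 male replicate 2 lay within the females' range. E13.5 males were 0.93 above E10.5 (SE 0.28, adjusted p = 0.058), and with E13.5 male replicate 2 left out the difference was 1.37 (adjusted p = 0.0143), and with E13.5 male replicate 1 left out it was 0.48 (adjusted p = 0.356). In a fit of all 14 arrays the adjusted p was 0.0486. The male minus female differences were -0.08 at E12.5 (95% interval -0.71 to 0.55) and 0.41 at E13.5 (95% interval -0.22 to 1.04).

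Rarg (chr15:102234938-102257522), the third receptor, had 2 probe sets that disagreed about E9.5. The brighter one (1419415_a_at) read 7.60 and 7.51 at E9.5, above the other 12 arrays, which lay between 6.19 and 7.10. The dimmer one (1419416_a_at) had its lowest group mean at E9.5, 4.90 ± 0.10 (SD, n = 2), and lay between 4.84 and 5.64 on the other arrays. In a fit of every probe set, E10.5 differed from E9.5 by -1.01 for the brighter one (SE 0.32, adjusted p = 0.23) and by 0.38 for the dimmer (SE 0.32, adjusted p = 0.624), so no direction can be given for the gene. In the fit of genes, the step of the brighter one was -1.37 without E10.5 replicate 1 (adjusted p = 0.0309) and -0.65 without E10.5 replicate 2 (adjusted p = 0.689). From E10.5 on, each difference of the brighter probe set had a size of at most 0.30.

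**Figure D1:**
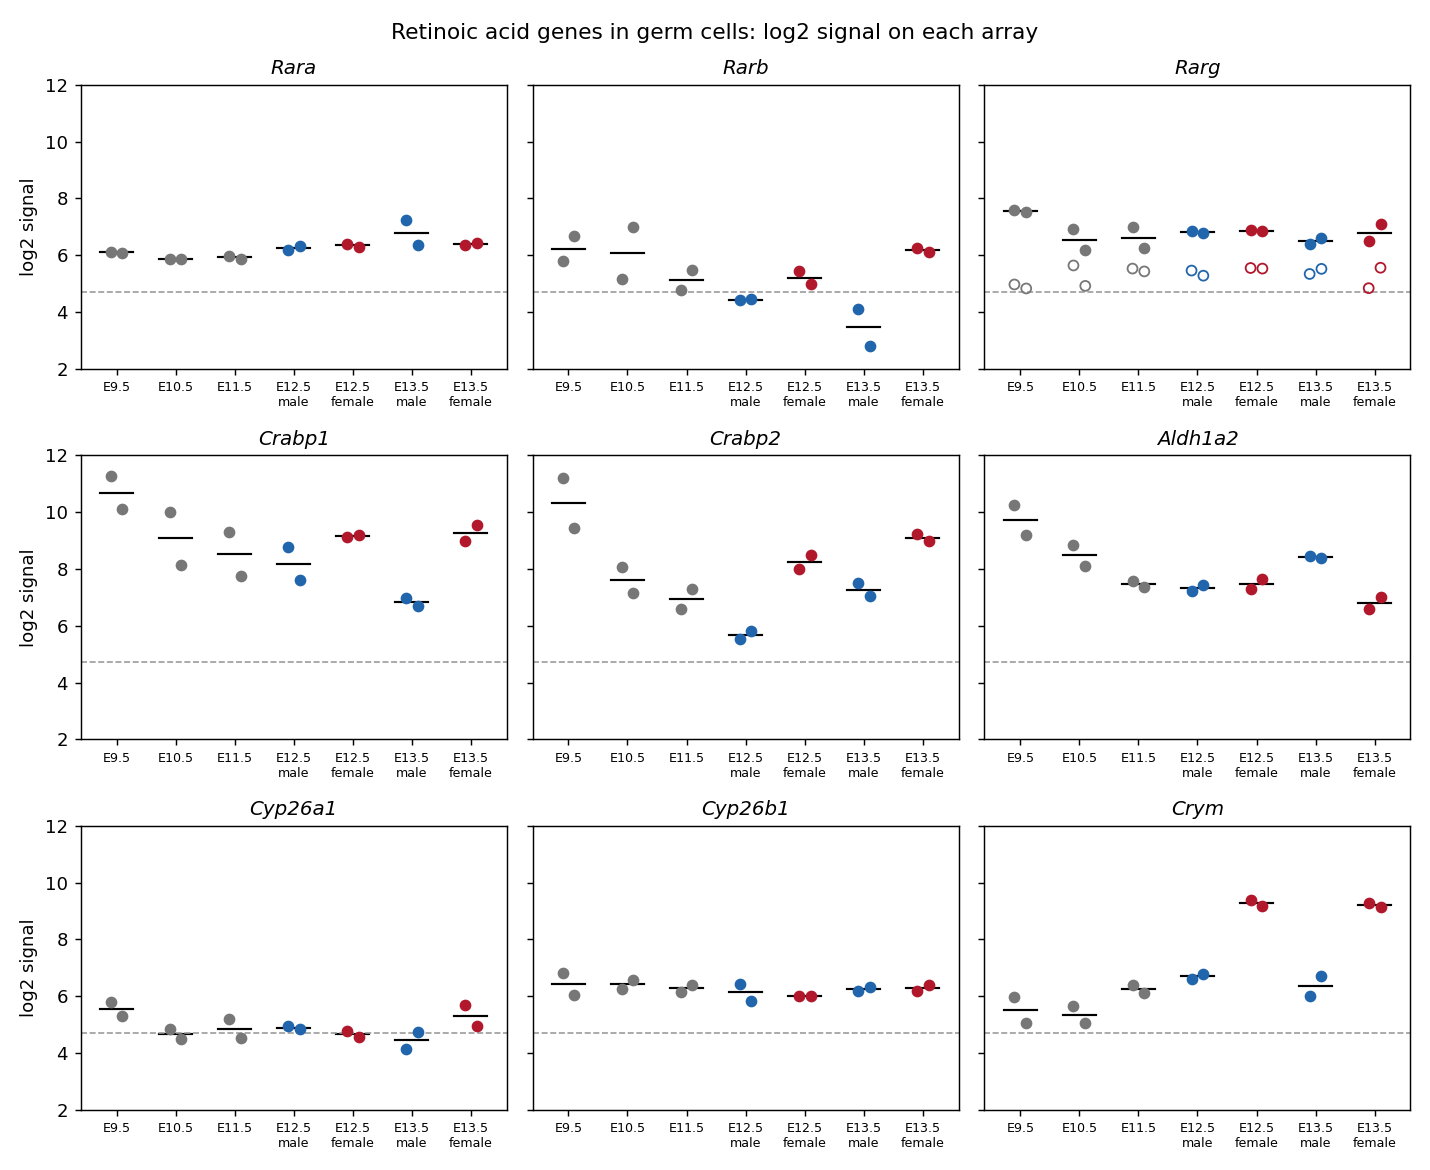
Log2 signal (vertical axis) of the 9 genes on each of the 14 arrays, by group: grey for unsexed cells, blue for males, red for females, bars at group means, and a dashed line at the table median of 4.72. Open points are the dimmer Rarg probe set. The female arrays of Crym lie above 9, the E13.5 male arrays of Crabp1 and Rarb are the lowest for those genes, and Cyp26a1 runs along the dashed line.

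Both binding proteins were lower in E13.5 males than in E13.5 females, and Crabp2 also at E12.5. Crabp2 (1451191_at, chr3:87948693-87953372), which carries retinoic acid into the nucleus and hands it to receptors, read 11.19 and 9.43 at E9.5, 8.07 and 7.16 at E10.5, and 6.59 and 7.30 at E11.5. From E12.5 on the sexes were measured apart: males read 5.52 and 5.81 at E12.5 against 7.99 and 8.48 in females, and 7.49 and 7.04 at E13.5 against 9.22 and 8.97 in females. The E12.5 males were the lowest arrays of all 14, and at both ages the sexes did not overlap. The difference at E12.5 was -2.57 in males relative to females (5.94-fold, SE 0.35, adjusted p = 0.00371). At E13.5 it was -1.83 (3.56-fold, SE 0.35, adjusted p = 0.00795). The E12.5 call was lost without E12.5 male replicate 1 (adjusted p = 0.0504) or E12.5 female replicate 2 (adjusted p = 0.0683), and the E13.5 call without E13.5 male replicate 2 (adjusted p = 0.0736) or E13.5 female replicate 1 (adjusted p = 0.07), with differences of -1.61 or larger in size in each case.

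Over time, Crabp2 had its highest arrays at E9.5, lower ones at E10.5 and E11.5, and then separate courses in the sexes. E10.5 cells were 2.70 below E9.5 cells (SE 0.50, adjusted p = 0.0266), a call lost without E10.5 replicate 2 or E9.5 replicate 1 (adjusted p = 0.192 and 0.149). Age, strain, kit and PCR cycles cannot be told apart in that step. Blood markers were also lower at E10.5, with log2 summed signals of 11.69 and 11.26 at E10.5 and 14.57 and 13.67 at E9.5 (2 of 5 genes passed), and their part in the fall was not tested. From E11.5 to E12.5, the male change was -1.28 (adjusted p = 0.162) and the female change 1.29 (adjusted p = 0.107), neither of which passed, although the difference between them is the E12.5 sex difference above. In both sexes E13.5 lay above E12.5. The male step of 1.60 passed (SE 0.35, adjusted p = 0.0482) but did so in no fit that left out one of its 4 arrays. The female step was 0.86 (SE 0.35, adjusted p = 0.276). Over the longer span, E13.5 females rose above E10.5 by 1.48 (SE 0.35, adjusted p = 0.0143), by 1.03 without E10.5 replicate 2 (adjusted p = 0.0796) and by 1.36 without E13.5 female replicate 1 (adjusted p = 0.0997). That call was also lost in fits of the compared arrays only, of all 14 arrays and without the arrays of high Gapdh difference (adjusted p = 0.0963, 0.0615 and 0.069). E13.5 males read -0.35 relative to E10.5 (95% interval -1.13 to 0.43).

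Crabp1 (1448326_a_at, chr9:54764748-54773110) is thought to hold retinoic acid in the cytosol and present it to degrading enzymes. It read 11.27 and 10.10 at E9.5, 10.00 and 8.15 at E10.5, and 9.31 and 7.74 at E11.5. Males read 8.76 and 7.61 at E12.5 and 6.97 and 6.71 at E13.5, whereas females read 9.12 and 9.18 at E12.5 and 8.97 and 9.56 at E13.5. The E13.5 males were the lowest arrays, the female arrays of both ages lay within the range of E10.5, and the replicates of the unsexed groups and of E12.5 males were wide apart. E13.5 males were lower than E13.5 females by a difference of -2.43 (5.37-fold, SE 0.63, adjusted p = 0.0329), a call that was lost whichever of the 4 arrays was left out (adjusted p between 0.0972 and 0.175), with differences between -2.72 and -2.13. It was also lost without the intensity trend (adjusted p = 0.0701) and with a floor at the 25th percentile (adjusted p = 0.0916). Against E10.5, E13.5 males fell by 2.24 (SE 0.63, adjusted p = 0.0403), and by 1.31 without E10.5 replicate 1 (adjusted p = 0.179) or 3.16 without E10.5 replicate 2 (adjusted p = 0.0063). That fall was no longer called without E13.5 male replicate 1 or 2 (-2.37, adjusted p = 0.125, and -2.11, adjusted p = 0.177). The E12.5 sex difference was -0.97 (SE 0.63, adjusted p = 0.63), and E10.5 was 1.61 below E9.5 (adjusted p = 0.267), or 2.54 below without E10.5 replicate 1 (adjusted p = 0.0307). Without E10.5 replicate 2 or E9.5 replicate 1 that step was -0.69 or -1.03 (adjusted p = 0.874 and 0.831).

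**Figure D2:**
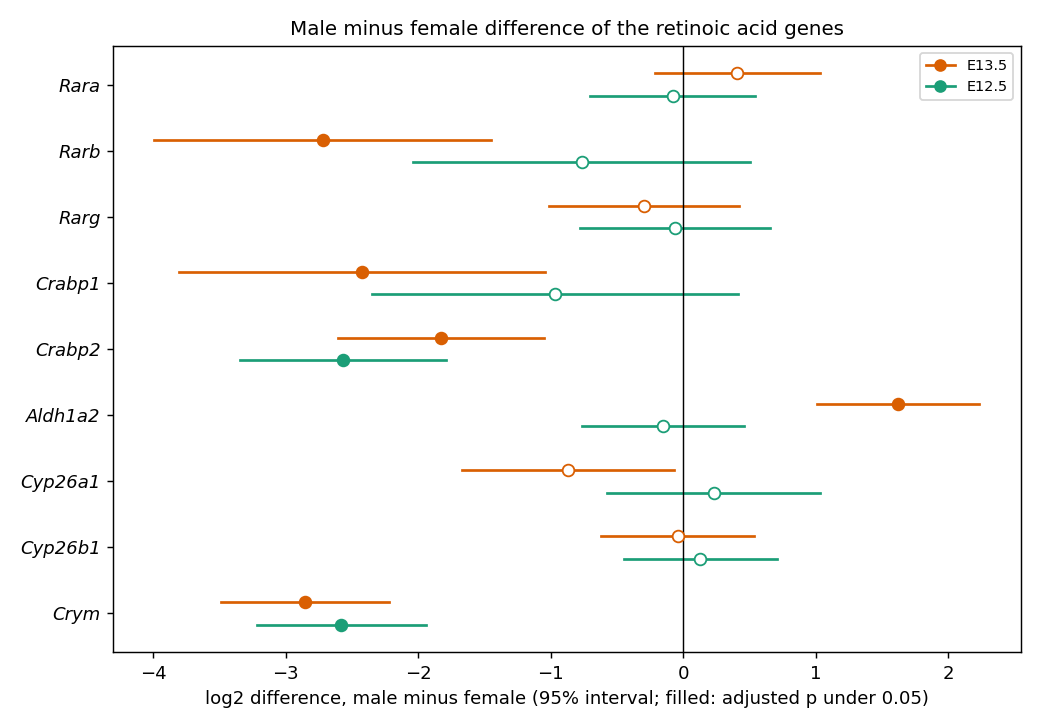
Male minus female log2 difference (horizontal axis) of each gene at E13.5 (orange) and E12.5 (green), with 95% intervals from the linear model; filled points have an adjusted p under 0.05. At E13.5 Rarb, Crabp1, Crabp2 and Crym lie left of 0 and Aldh1a2 right of it, and at E12.5 Crabp2 and Crym lie left of 0.

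Aldh1a2 (1422789_at, chr9:71215789-71296243) makes retinoic acid and in the embryo is known from mesoderm, including the mesonephros beside the gonad. Its signal was 10.26 and 9.20 at E9.5, 8.85 and 8.12 at E10.5, and 7.56 and 7.37 at E11.5. At E12.5 it was 7.22 and 7.42 in males and 7.29 and 7.65 in females, and at E13.5 it was 8.45 and 8.40 in males and 6.58 and 7.02 in females. The sexes overlapped at E12.5 and were apart at E13.5, with the males within the E10.5 range and the females the lowest of all groups. At E13.5 males were 1.63 above females (3.08-fold, SE 0.28, adjusted p = 0.00403), and the call was kept whichever of the 4 arrays was left out (1.41 to 1.85). Without both arrays of high Gapdh difference it was 1.87 (adjusted p = 0.066). E13.5 females fell by 1.69 relative to E10.5 (SE 0.28, adjusted p = 0.00177), a call kept whichever of the 4 arrays was left out and lost in a fit of these arrays only (adjusted p = 0.0639), whereas E13.5 males read -0.06 (95% interval -0.67 to 0.55).

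E13.5 differed from E12.5 by 1.11 in males (SE 0.28, adjusted p = 0.0759) and by -0.67 in females (SE 0.28, adjusted p = 0.28). Neither step passed. The test of the difference between them gave 1.78 (SE 0.39, 95% interval 0.91 to 2.64, unadjusted p = 0.000936) and an adjusted p of 0.193 over all genes, with 0.011% of genes passing in that comparison. The earlier steps were -1.25 from E9.5 to E10.5 (adjusted p = 0.136) and -1.02 from E10.5 to E11.5 (adjusted p = 0.335). The first of these passed without E10.5 replicate 1 (-1.61, adjusted p = 0.0257) or E9.5 replicate 2 (-1.78, adjusted p = 0.0339), and was -0.88 without E10.5 replicate 2 (adjusted p = 0.576) or -0.72 without E9.5 replicate 1 (adjusted p = 0.683).

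Markers of other cells moved beside Aldh1a2. The log2 summed signal of 8 markers of male supporting cells was 10.23 and 9.87 in E13.5 males and 8.96 and 9.09 in E13.5 females, and that of 4 steroidogenic markers was 7.66 and 7.54 in males and 6.88 and 6.88 in females. The male supporting sum was 9.64 and 9.02 at E10.5 and 9.69 and 9.35 at E11.5. At E12.5 it was 9.38 and 9.69 in males and 9.39 and 9.48 in females. Between the sexes at E13.5, Cst9 and Ptgds, 2 of the 8 male supporting markers, and Cyp17a1 and Hsd3b1, 2 of the 4 steroidogenic markers, were higher in males, while Sox9 was dim in both sexes (2.61 ± 0.30 in males, 3.13 ± 0.26 in females, SD, n = 2). Of the 12 markers of gonadal somatic cells and mesenchyme 0 passed in the limma test (5 with an unadjusted p under 0.05), with summed signals of 8.74 and 8.99 in males and 8.88 and 8.90 in females. In the male step from E12.5 to E13.5, Cyp17a1 of the steroidogenic list rose by 2.365 (adjusted p = 0.00753). Of the gonadal somatic and mesenchyme list, 1 of 12 passed in that step, Col3a1, higher by 1.61 (adjusted p = 0.0436). Earlier, that list's sum was 11.59 and 10.23 at E9.5, 10.35 and 9.91 at E10.5, and 8.68 and 8.62 at E11.5, the same days on which Aldh1a2 was high and then lower. Markers of female supporting cells did not move as one. Of 6, Wnt4, Irx3 and Bmp2 were lower in E13.5 males and 0 passed as higher by limma, while Rspo1 (8.95 ± 0.16 in males, 7.81 ± 0.07 in females) and Fst (5.69 ± 0.85 in males, 4.92 ± 0.16 in females, SD, n = 2) had higher means in males. That list's summed signal was 9.30 and 9.59 in males and 9.29 and 9.31 in females. Gata3, 1 of 3 mesonephros markers, was lower in males. The part of these cells in the signal of Aldh1a2 and of the other members that differed between the sexes was not tested. Hba-a1 of blood was listed at 0 on at least 1 array of each group.

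**Figure D3:**
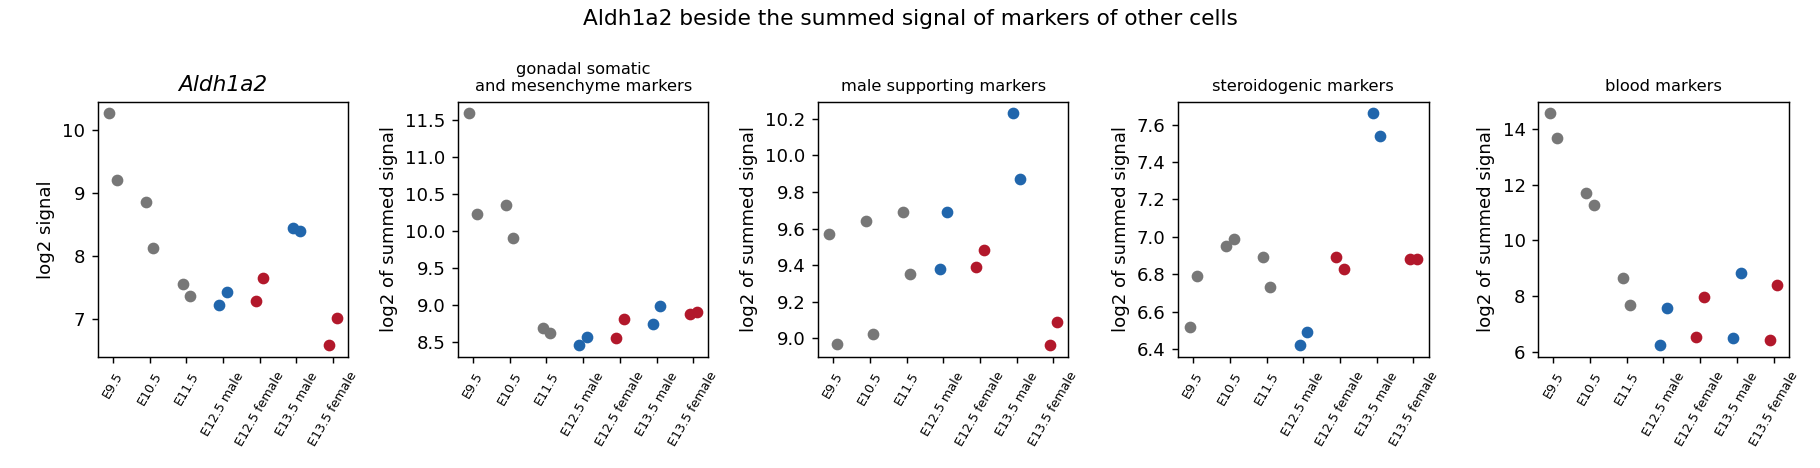
Log2 signal of Aldh1a2 on each array (left) beside the log2 of the summed signal of 4 marker lists, each with its own vertical scale, by group (grey unsexed, blue male, red female). E13.5 males are the highest sexed group for Aldh1a2 and for the male supporting and steroidogenic markers, and E9.5 and E10.5 are high for Aldh1a2, the gonadal somatic and mesenchyme markers and blood.

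For the enzymes that break retinoic acid down, no change passed in any of the 11 comparisons. Cyp26a1 (1419430_at, chr19:37697738-37701536), which retinoic acid induces in many tissues, read 5.81 and 5.32 at E9.5, 4.83 and 4.49 at E10.5, and 5.19 and 4.53 at E11.5. E12.5 males read 4.94 and 4.84 and E12.5 females 4.76 and 4.56, and E13.5 males read 4.14 and 4.75 and E13.5 females 5.69 and 4.94. Its mean was dim for E10.5, E13.5 males and E12.5 females, and no higher than 5.57 elsewhere, so of the 9 genes this was the nearest to staying dim. E10.5 differed from E9.5 by -0.91 (adjusted p = 0.269) and E13.5 males from E13.5 females by -0.87 (adjusted p = 0.183), with unadjusted p-values of 0.0288 and 0.036.

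Cyp26b1 (1460011_at, chr6:84571414-84593908), the enzyme known from testis supporting cells, lay between 5.83 and 6.82 on all 14 arrays. Its group means spanned 0.42, the smallest range of the 9 genes, and each neighbouring pair of groups in their order overlapped. The male minus female difference was 0.13 at E12.5 (95% interval -0.45 to 0.71) and -0.04 at E13.5 (95% interval -0.62 to 0.54). These intervals leave room for differences of up to 0.71 in size. It read 6.17 and 6.31 in E13.5 males and 6.18 and 6.38 in E13.5 females.

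Crym (1416776_at, chr7:120186380-120201989), the thyroid hormone binding protein, was higher in females at both ages. It read 5.96 and 5.07 at E9.5, 5.64 and 5.05 at E10.5, and 6.41 and 6.11 at E11.5. Males read 6.61 and 6.79 at E12.5 and 6.01 and 6.71 at E13.5, and females read 9.38 and 9.18 at E12.5 and 9.28 and 9.15 at E13.5. All 4 female arrays lay above all 10 others. The male minus female difference was -2.58 at E12.5 (5.98-fold, SE 0.29, adjusted p = 0.00117) and -2.86 at E13.5 (7.24-fold, SE 0.29, adjusted p = 0.000197). E12.5 females rose above E11.5 by 3.02 (8.11-fold, adjusted p = 0.00138), and the next female step was -0.07 (95% interval -0.70 to 0.57). These calls held in all fits with one array left out.

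In males the corresponding steps of Crym were 0.44 from E11.5 to E12.5 (adjusted p = 0.717) and -0.34 from E12.5 to E13.5 (adjusted p = 0.668). Compared with E10.5, E13.5 males rose by 1.02 (adjusted p = 0.0424) and E13.5 females by 3.87 (14.6-fold, adjusted p = 2.118e-05). The male rise was lost without E13.5 male replicate 2 or E10.5 replicate 2, and 8 of 12 other settings also lost it.

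**Figure D4:**
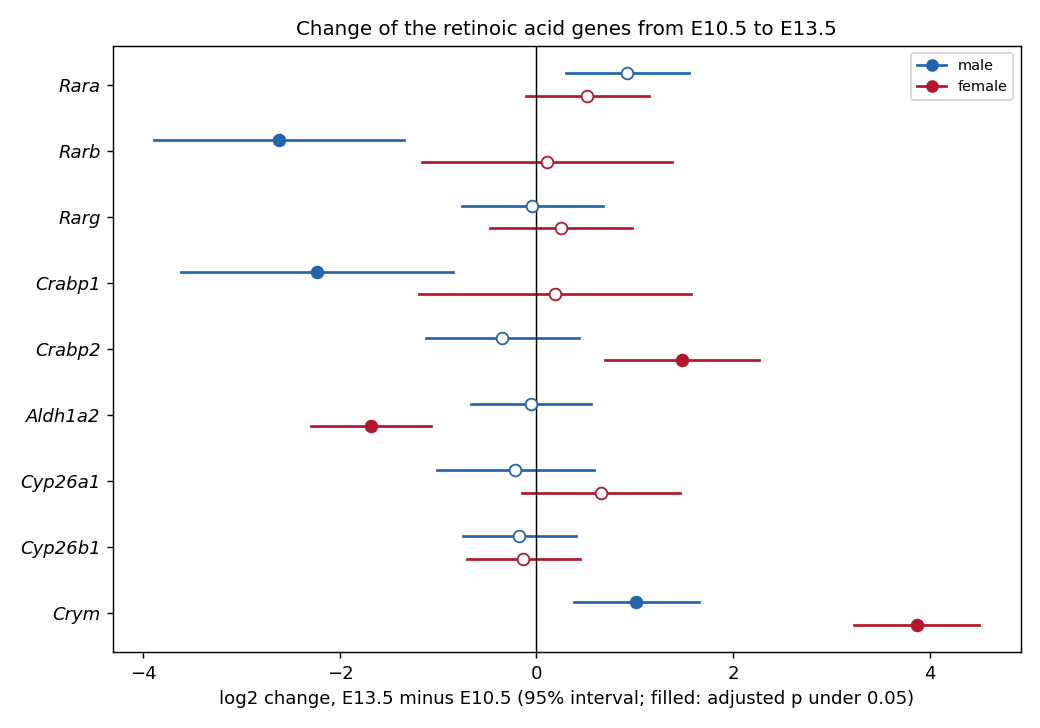
Log2 change from E10.5 to E13.5 (horizontal axis) of each gene in males (blue) and females (red), with 95% intervals; filled points have an adjusted p under 0.05. Rarb and Crabp1 lie left of 0 in males, Aldh1a2 left of 0 in females, Crabp2 right of 0 in females and Crym right of 0 in both.

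Counted over the 9 genes, the sex difference at E13.5 had the most calls. These genes, Crym included, were chosen with earlier results of these data known, so the counts describe them and test no excess. Among them 5 passed, 4 lower and 1 higher in males, beside 10.2% of all genes, and the median difference was -0.87, against -0.02 over all genes. At E12.5, 2 passed, both lower in males, beside 2.39% of all genes, with a median of -0.15 against -0.05. Relative to E10.5, 3 passed in E13.5 males (12.7% of all genes) and 3 in E13.5 females (17.9% of all genes). For the steps of one day, 1 of 9 passed in E10.5 against E9.5 (1.06% of all genes), E12.5 females against E11.5 (1.86%) and E13.5 males against E12.5 males (2.09%). In E11.5 against E10.5 (0.0769% of all genes), E12.5 males against E11.5 (1.01%), E13.5 females against E12.5 females (1.87%) and the change of the sex difference (0.011%), 0 of 9 passed in limma, with 2, 1, 2 and 2 at an unadjusted p under 0.05. The comparisons with E10.5 share their E10.5 arrays, and those between neighbouring days share a group. Without replicate 2 of both E13.5 sexes, which had the high Gapdh differences, the E13.5 sex difference was -3.27 for Crym (adjusted p = 0.0104), -2.16 for Rarb (adjusted p = 0.248), -2.0 for Crabp1 (adjusted p = 0.407) and -1.73 for Crabp2 (adjusted p = 0.173), so that of the 5 calls Crym's alone remained in that fit of 1 array per E13.5 group.

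Other genes of the pathway came from lists of receptor partners, retinol transport and synthesis, further binding and degradation, coregulators and responsive genes, with 45 symbols of which 38 were tested here. Of these, 16 (42.1%) passed in at least 1 of the 11 comparisons, beside 25.2% of all genes. The lists were also chosen with earlier results of these data known, so these shares test no excess. At E13.5, 3 of the 38 were higher and 6 lower in males than in females, beside 4.19% higher and 6% lower over all genes. At E12.5, 2 were higher and 3 lower in males, beside 0.665% and 1.73% over all genes. The members that moved were of different kinds.

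Rxra, a retinoid X receptor that pairs with Rara, Rarb and Rarg, read 7.24 and 6.66 at E9.5, 6.23 and 6.42 at E10.5 and 6.14 and 6.36 at E11.5. Males read 6.74 and 7.23 at E12.5 and 8.06 and 7.90 at E13.5, and females read 7.78 and 7.82 at E12.5 and 8.53 and 8.57 at E13.5. The female arrays read above the male arrays at both ages, and within each sex E13.5 read above E12.5. It rose in E12.5 females relative to E11.5 by 1.55 (adjusted p = 0.00921), and at E13.5 relative to E10.5 by 1.66 in males (adjusted p = 0.000741) and 2.23 in females (adjusted p = 0.000114). The male minus female differences, -0.82 and -0.57 at E12.5 and E13.5, did not pass (adjusted p = 0.106 and 0.155). Rxrb and Rxrg, the other partners, passed in none of the 11 limma comparisons, with group means between 9.21 and 9.92 and between 5.82 and 6.44, and of these 22 tests 1 had an unadjusted p under 0.05 (Rxrb, E13.5 males against E10.5).

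Among coregulators, Ncoa1, a coactivator of nuclear receptors, was lower in males than in females, with differences of -1.41 at E12.5 (adjusted p = 0.0102) and -1.71 at E13.5 (adjusted p = 0.000938). Its E13.5 arrays read 7.60 and 7.51 in males and 9.37 and 9.15 in females. Ncoa2, a related coactivator, differed by -0.71 at E13.5 (adjusted p = 0.0321), at 10.37 ± 0.09 in males and 11.08 ± 0.11 in females (SD, n = 2). Of the 7 coregulators tested, these were the 2 that passed between the sexes at E13.5, beside 10.2% of all genes.

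Among the genes of retinol transport and synthesis, 3 were higher in E13.5 males than in E13.5 females, Aldh1a1 and Adh1 among them. Aldh1a1, another retinaldehyde dehydrogenase, read 7.74 and 6.20 in E13.5 males and 4.10 and 3.63 in E13.5 females, where it was dim. The difference was 3.11 (SE 0.67, adjusted p = 0.0141). Adh1, an alcohol dehydrogenase that can oxidise retinol, was 2.09 higher in males at E12.5 (7.39 ± 0.29 in males, 5.30 ± 0.04 in females, adjusted p = 0.00344) and 1.41 higher at E13.5 (adjusted p = 0.00924). Rdh10, which makes retinaldehyde from retinol, rose by 1.63 in E13.5 females relative to E10.5 (adjusted p = 0.00574), and Rdh11 fell by 1.79 in E13.5 males relative to E10.5 (adjusted p = 0.0122). Of the 18 genes tested in this list, 0 were lower in males at E13.5 by limma (4 had an unadjusted p under 0.05 in either direction). Over all genes, 4.19% were higher and 6% lower. Fabp5, a fatty acid binding protein that also carries retinoic acid, was 2.13 higher in males at E12.5 (10.57 ± 0.40 in males, 8.44 ± 0.15 in females, adjusted p = 0.0468). The male supporting and steroidogenic markers given above were higher on the same E13.5 male arrays, Cst9 and Ptgds also on the E12.5 male arrays, and their part in these values was not tested.

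Genes that respond to retinoic acid were measured on the same arrays. Stra8 read 3.87 and 4.87 in males at E12.5, against 9.82 and 10.08 in females, and at E13.5 it read 6.20 and 5.39 in males, against 12.89 and 12.35 in females. The differences were -5.58 (adjusted p = 0.0017), from a dim male mean, and -6.83 (adjusted p = 0.00017). Rec8, a meiotic cohesin, was lower in males, with differences of -3.65 at E12.5 (adjusted p = 2.885e-05) and -4.05 at E13.5 (adjusted p = 6.429e-06), and in E13.5 males it rose above E12.5 males by 1.87 (adjusted p = 0.00312). Other responsive genes followed other courses. Hoxb1, a homeobox gene, was lower at E10.5 than at E9.5 (difference -3.72, adjusted p = 0.0465), at dim values of 2.64 and 3.13, against 7.21 and 6.00 at E9.5. As for Crabp2, age, strain, kit and PCR cycles cannot be told apart in that step. The part of the blood and other marker signals given above for E9.5 was not tested. Nr2f1, a nuclear receptor, read 3.64 and 2.67 in E13.5 males and 6.46 and 5.80 in E13.5 females (difference -2.98, adjusted p = 0.00103), and its signal fell by 3.03 in E11.5 cells relative to E10.5 cells (adjusted p = 0.0213). The summed signal of gonadal somatic and mesenchyme markers was 10.35 and 9.91 at E10.5 and 8.68 and 8.62 at E11.5. In that step 1 of these 12 markers passed, as lower, and their part in the fall of Nr2f1 was not tested. Of the 9 responsive genes tested, 4 were lower and 0 higher in males at E13.5 (4 had an unadjusted p under 0.05), beside 6% and 4.19% of all genes. The median difference of the list was 0.065, against -0.02 over all genes. The genes that passed were thus all lower in males, while the middle of the list lay near that of all genes.

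**Figure D5:**
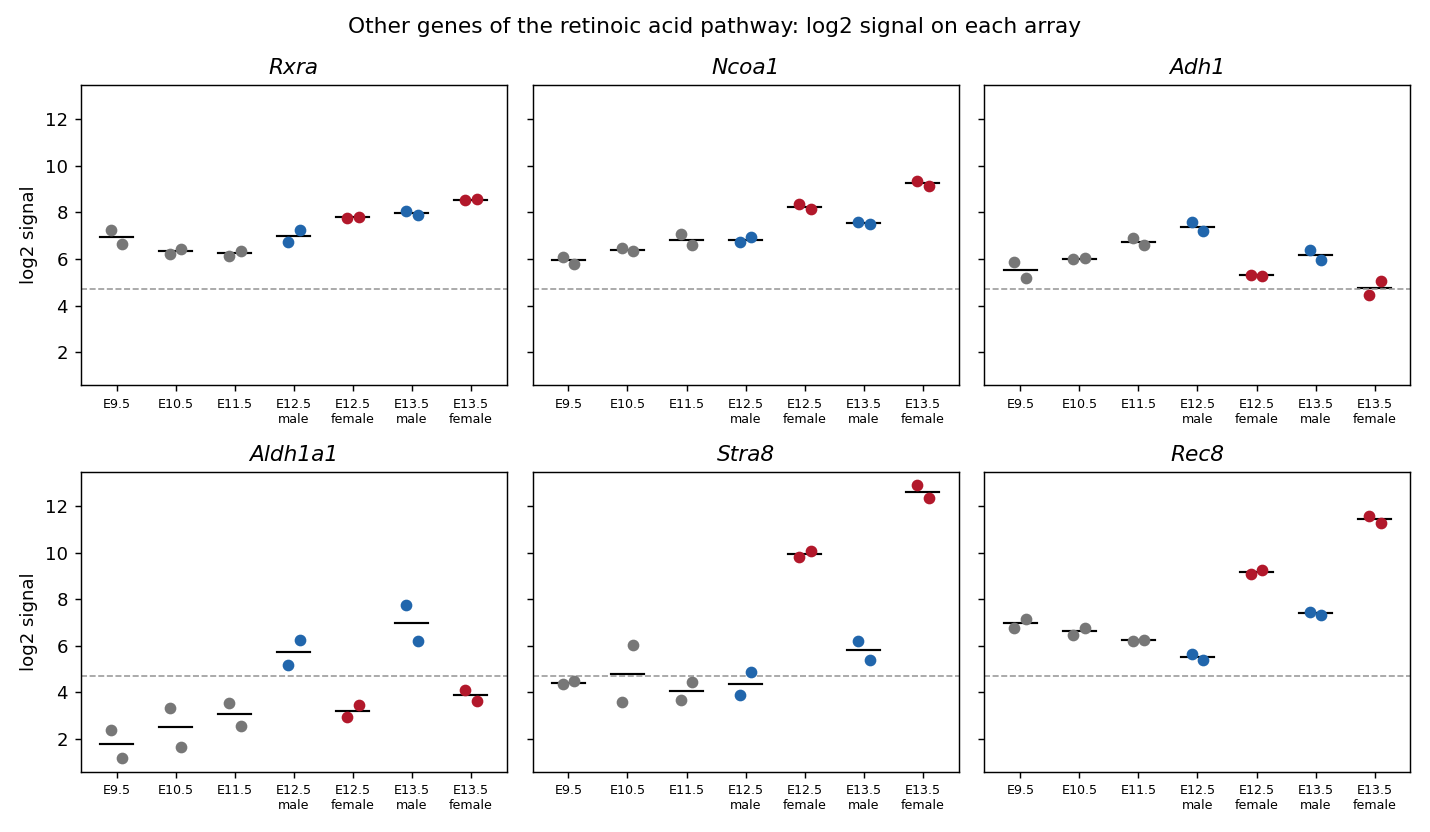
Log2 signal (vertical axis) of 6 other genes of the pathway on each array, by group (grey unsexed, blue male, red female), with bars at group means and a dashed line at the table median of 4.72. Rxra, Ncoa1, Stra8 and Rec8 are higher on the female than on the male arrays of each age, and Adh1 and Aldh1a1 are higher on the male arrays.

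For the 5 members that passed from E10.5 on, the genes of most similar course were found by Pearson's r over the 14 arrays, among 2170 genes whose group means spanned at least 2. These values describe shared groups and shared arrays and carry no test. Crym was closest to Zglp1 (r = 0.957), Dusp9 (0.954) and Iqsec1 (0.952). Crabp2 was closest to Hmgn3 (0.949), Tmem132a (0.944) and 2210408K08Rik (0.931). Crabp1 was closest to Septin9 and Grasp (both 0.957) and 1700086O06Rik (0.931). Aldh1a2 was closest to Cxcl12 (0.929), Nnat (0.916) and Marcks (0.914), and Rarb to Cdcp1 (0.906), Pmp22 (0.893) and Cdc42ep3 (0.883). The 5 lists of nearest genes had no gene in common.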

How the data were processed

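The authors deposited log2 probe set signals, normalized over all 14 arrays together per the series' design text; which software made the values is not given in the sources used here. Per the labels' protocols, RNA was amplified as cDNA by PCR and hybridized as biotin-labelled cRNA. The log2 scale was read from the values, 0 to 14.04. Probe sets were named from the platform annotation, with symbols updated through RefSeq for 34754 of 34958. Of several probe sets per gene, the one with the highest mean over the fitted arrays stood for it.

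Group means were compared with limma 3.58.1 in R 4.3.3, with an intensity trend, over 18194 genes. The 12 arrays from E10.5 on gave 10 comparisons, and the fit of all 14 gave the step to E10.5. Within each comparison the Benjamini-Hochberg method adjusted the two-sided p-values of all genes, and passing means under 0.05. The code was tested on simulated data.

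All members were named, other pathway genes by a rule: up to 4 per list, by size of change among those that passed, plus Stra8, Rec8 and the retinoid X receptors. Members and lists were chosen with earlier results of these data known. Labels call the replicates biological; p-values measure the spread between these samples. Alternatives were other normalizations, filters, probe set rules and fits, and leaving out arrays.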

Additional observations from a re-analysis of the deposited data

Results flagged for a closer look

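For 5 of the 9 genes the male and female changes differed, in that the sex difference at E12.5 or E13.5 passed. Since both sexes were set against the same unsexed arrays, the male change minus the female change equals the sex difference given above. From E11.5 to E12.5 it was -2.57 for Crabp2 and -2.58 for Crym. From E10.5 to E13.5 it was -2.72 for Rarb, -2.43 for Crabp1, -1.83 for Crabp2, 1.63 for Aldh1a2 and -2.86 for Crym. As given above, the calls of Rarb, Crabp1 and Crabp2 did not hold in each fit with one array left out. For the change of the sex difference from E12.5 to E13.5, 0 of 9 genes passed in limma (2 had an unadjusted p under 0.05). No test for an outlying array was run, since each group held 2.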

How the results depend on the processing

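The 99 differences (9 genes in 11 comparisons) had 1522 results under alternatives, each for a gene, a comparison and a setting. One fit gave the results of all members at once. Of the 1522, 1448 kept their side of the threshold, 65 lost a call, 9 gained one and 0 were called in the opposite direction. Most of the 99 differences had not passed in the main fit and so had no call to lose. All 65 losses fell on the differences that had passed, so the share kept does not measure how firm the calls were. The count of passing members in E10.5 against E9.5 was 1, and 0 without the intensity trend, with array weights, with the compared arrays only or with a floor at the 25th percentile, and 0 to 4 with one array left out. For E12.5 females against E11.5 it was 1, and 2 with array weights. For E13.5 males against E12.5 males it was 1, 2 with array weights, and 0 with quantile normalization, the mean of all probe sets, every probe set tested, no trend, the compared arrays only, all 14 arrays, the floor, without arrays of high Gapdh difference (an alternative chosen after seeing the data) and in each fit with one array left out. For E13.5 females against E10.5 it was 3, 1 with the compared arrays only, and 2 with all 14 arrays or without arrays of high Gapdh difference (2 to 3 with one array left out), with Crabp2 lost in each. For E13.5 males against E10.5 it was 3, 0 with the compared arrays only, 2 with the filter on dim genes, where Rarb was not tested, and 1 with every probe set, no trend, array weights or the floor, which was Rarb (1 to 2 with one array left out). Without arrays of high Gapdh difference the 3 calls were lost and Rara passed in their place, and with all 14 arrays Rara passed and Crym did not. For the sex difference it was 2 at E12.5 (1 to 2 with one array left out) and 5 at E13.5 (2 to 4), where it was 4 without the trend or with the floor (Crabp1 lost), 4 with the filter on dim genes (Rarb not tested) and 1 (Crym) without arrays of high Gapdh difference, a fit with 1 array in each E13.5 group, which is assumed to vary like the other groups. The cause of these shifts was not tested. The main fit did not pair samples by replicate number. Replicate differences were correlated over 0.1 in 8 of 21 pairs of groups, within a range from -0.467 to 0.614. Between the sexes of one age, r was 0.533 at E13.5 and 0.306 at E12.5, so these replicates shared part of their differences. With a replicate block, the count for E13.5 males against E12.5 males was 0 in place of 1 (limma, 2 members at an unadjusted p under 0.05 without the block), and Crym in E13.5 males against E10.5 also lost its call. Counts over all genes moved more, from 1854 at E13.5 between the sexes to between 406 and 2240, from 435 at E12.5 to between 93 and 1314, from 3248 and 2319 in E13.5 females and males against E10.5 to 1022 to 4426 and 578 to 3146, and in the steps from 193 to 0 to 1925 (E10.5 against E9.5), 14 to 0 to 38 (E11.5), 338 to 23 to 741 (E12.5 females), 183 to 0 to 242 (E12.5 males), 341 to 0 to 1023 (E13.5 females) and 381 to 13 to 796 (E13.5 males). Crym in the sex comparisons and in E12.5 females against E11.5 passed in all settings run.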
